A study of Mus musculus with 8 samples.

Results

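Transcripts of 10 genes of bile acid synthesis and conjugation were examined in mouse liver after feeding with NaPB, sodium phenobarbital, a drug known to activate the receptor CAR of liver cells. The genes were Cyp7a1, Cyp8b1, Cyp27a1, Cyp7b1, Cyp39a1, Hsd3b7, Akr1d1, Baat, Slc27a5 and Nr0b2. They were chosen by name from knowledge of the pathway, with earlier results of these data known. They were represented by 20 of the 62976 features (spots) of a one-colour Agilent array and by 10 of the 20738 named genes. The treated livers came from male CD-1 mice, an outbred stock, fed 2500 ppm NaPB in the diet for 7 days (4 arrays), and the comparison livers from male CD-1 mice fed the 0 ppm control diet for 7 days (4 arrays). The age of the mice is not given in the sources used here, and no label ties the 4 arrays of a group to different mice; the p-values therefore reflect spread between samples that may be technical. The comparison asks which liver transcripts differ between the diets.

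Bile acids are made from cholesterol in hepatocytes. In the classical pathway Cyp7a1, the rate-limiting enzyme, hydroxylates the sterol ring of cholesterol, and Cyp8b1 adds the hydroxyl group that distinguishes cholic acid. In the acidic (alternative) pathway the mitochondrial enzyme Cyp27a1 first oxidizes the side chain, and Cyp7b1 then hydroxylates the ring of the oxysterol; Cyp39a1 does the same for another oxysterol. Hsd3b7 and Akr1d1 modify the ring further, Slc27a5 joins bile acids to coenzyme A, and Baat passes them to taurine or glycine. Nr0b2 encodes SHP, a repressor of this pathway that the bile acid receptor FXR (Nr1h4) induces.

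The table of RefSeq promoter windows (GRCm38.p6, 250 bases before to 50 bases after a start site) held windows for 5 of the 10 genes. Of these 5, the windows of Cyp8b1, Akr1d1 and Nr0b2 are shown, because they held matches to motifs of nuclear receptors that act on the pathway. They lie at chr9:121916256-121916555 (minus strand), chr6:37529923-37530222 (plus strand) and chr4:133553126-133553425 (plus strand). Capitals mark matches on either strand to the half-site AGGTCA, the NR5A2 core TCAAGG or the HNF4A core CAAAGTCCA, a motif added after the Cyp8b1 window had been read.
Cyp8b1 promoter window: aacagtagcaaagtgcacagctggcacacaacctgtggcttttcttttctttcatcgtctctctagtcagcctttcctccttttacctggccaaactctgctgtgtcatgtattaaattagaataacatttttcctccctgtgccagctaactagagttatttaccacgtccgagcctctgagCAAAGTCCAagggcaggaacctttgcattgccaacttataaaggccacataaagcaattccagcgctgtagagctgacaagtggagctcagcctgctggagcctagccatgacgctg
Akr1d1 promoter window: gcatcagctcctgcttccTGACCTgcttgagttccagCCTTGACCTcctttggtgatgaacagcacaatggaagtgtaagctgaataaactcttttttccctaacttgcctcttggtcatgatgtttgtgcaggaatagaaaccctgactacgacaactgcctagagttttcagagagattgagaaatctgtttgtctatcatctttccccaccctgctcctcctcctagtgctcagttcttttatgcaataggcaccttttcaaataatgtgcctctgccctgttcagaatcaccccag
Nr0b2 promoter window: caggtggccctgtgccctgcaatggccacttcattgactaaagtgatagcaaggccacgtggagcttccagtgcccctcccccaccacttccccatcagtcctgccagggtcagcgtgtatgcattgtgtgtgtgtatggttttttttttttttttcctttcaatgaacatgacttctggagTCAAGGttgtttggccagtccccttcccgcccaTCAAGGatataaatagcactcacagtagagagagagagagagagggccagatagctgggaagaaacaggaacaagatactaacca
The Cyp8b1 window held CAAAGTCCA at -67 from the start site, a motif in 0.475% of all 32851 windows. Because the motif was added after this window was read, that share does not measure how unusual the match is. The Nr0b2 window held TCAAGG at -68 and at -35, and 14.4% of all windows hold this motif. In the Akr1d1 window AGGTCA was read on the opposite strand at -232 and -210, and TCAAGG on the opposite strand at -213, where it overlaps the second half-site. These positions count from the start site on which the window was built. The annotated start of the Akr1d1 gene, at base 37529978, lies within the window and upstream of that site. The half-site is in 16.3% of all windows. None of these 3 motifs was in the windows of Cyp27a1 and Hsd3b7. A match is a description of the sequence and not a binding site.

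Cyp7b1 showed the largest difference between the diets of the 10 genes, with a geometric mean intensity 3.33-fold lower on NaPB, but no gene of the 10 passed the test over all genes. A linear model (limma) with diet as its term was fitted to log2 of the deposited intensity for each gene, by its brightest feature, with Benjamini-Hochberg adjustment over the 20738 genes and a threshold of 0.05. By this test 0 of the 10 were called, against 1.01% of all genes (209), of which 0.391% were higher and 0.617% lower on NaPB. At an unadjusted p below 0.05 stood 4 of the 10, Cyp7b1, Hsd3b7, Slc27a5 and Cyp8b1, all lower on NaPB, against 10.1% of all genes. Every NaPB array lay below every control array for Cyp7b1, Hsd3b7 and Slc27a5, which is 3 of 10 against 4.31% of all genes. The reverse held for 0 of 10, against 2.72% of all genes. The log2 fold change was below 0 for 8 of the 10 genes, with a median of −0.50 against 0.01 over all genes. Feature by feature, limma called 0 of the 20 features, against 1.02% of all features. All values were above the floor of their array, taken as 2 times its lowest value, but some were near or below the median of all features. Cyp7a1 read 0.110 on NaPB replicate 4 (array median 0.385) and 0.355 on control replicate 2 (array median 0.396). Akr1d1 read 0.423 on NaPB replicate 4 and 0.403 on control replicate 3 (array median 0.359). Fold changes of these 2 genes therefore rest in part on dim values.

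**Figure D1:**
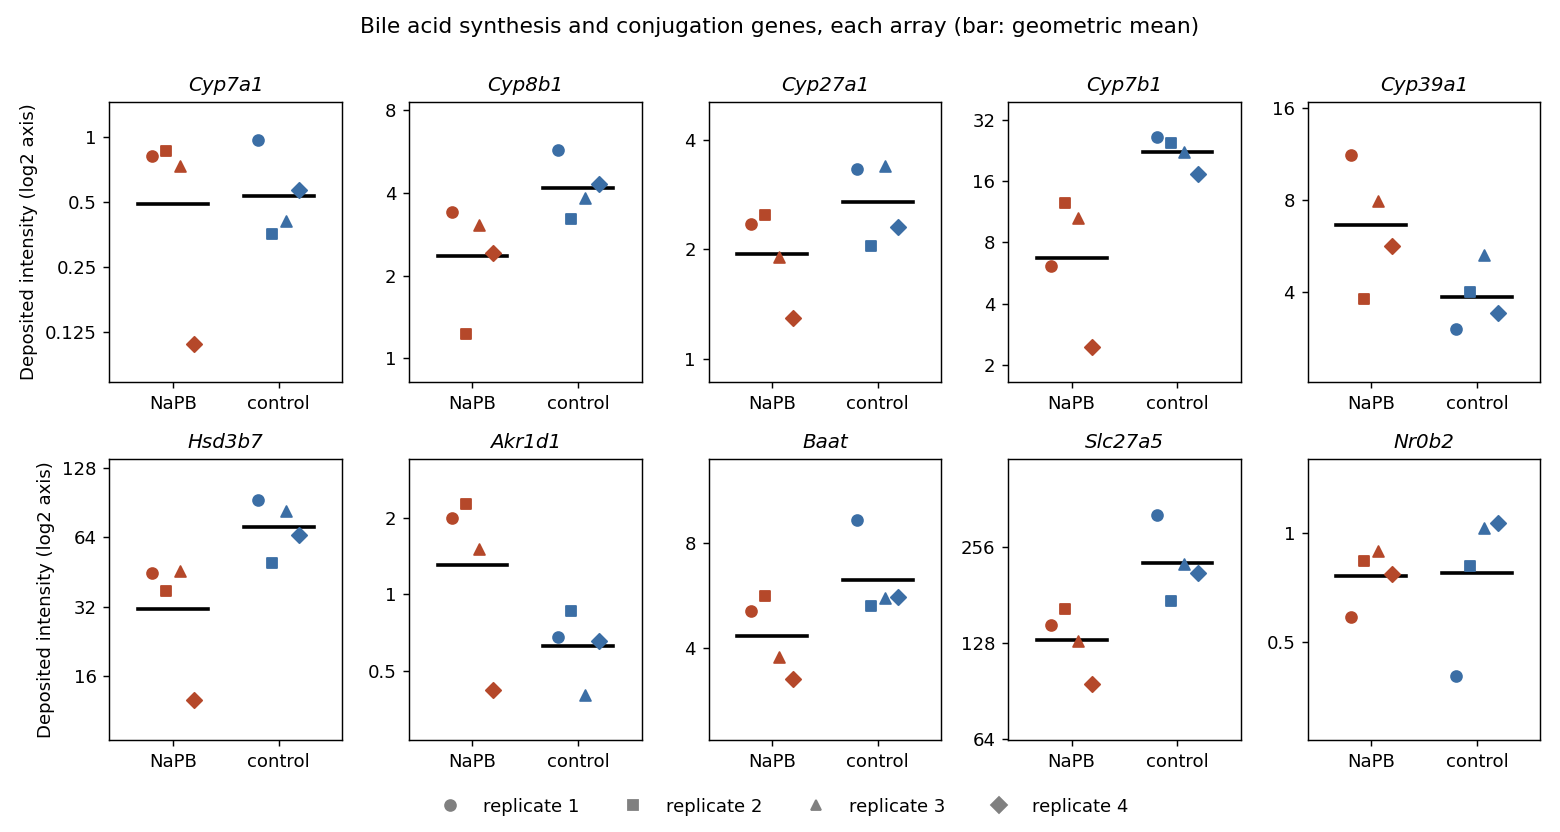
Deposited intensity (log2 axis) of the 10 genes on each array, by brightest feature, with 4 NaPB arrays left and 4 control arrays right in each panel; marker shapes give the replicate number and bars the geometric means. For Cyp7b1, Hsd3b7 and Slc27a5 every NaPB array lies below every control array, and NaPB replicate 4 is the lowest NaPB array for 7 of the 10 genes.

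The number of arrays limits the precision, and arrays of a diet differed in where they lay. NaPB replicate 4 was the lowest of the 4 NaPB arrays for 7 of the 10 genes, against 43.7% of all genes, and control replicate 1 the highest control array for 6 of the 10, against 43.8% of all genes. NaPB replicate 2 was the highest NaPB array for 6 of the 10, against 32.0% of all genes, and control replicate 2 the lowest control array for 6 of the 10, against 34.7%. Relative to the mean of the other NaPB arrays, NaPB replicate 4 lay at a median of −0.70 log2 units over the 10 genes and −0.20 over all genes. The 99th percentile of intensity was 60.6 on NaPB replicate 4 and 103 to 120.3 on the other NaPB arrays, and 118 on control replicate 1 and 64.1 to 99.4 on the other control arrays. The part of this difference in bright-end signal in the results was not tested. Results of the 10 genes that rest on NaPB replicate 4 or control replicate 1 are given with and without it. Cyp2b10, the P450 classically induced by phenobarbital, had intensities of 521, 491, 430 and 77.7 on NaPB replicates 1 to 4, against 3.72, 0.863, 2.98 and 5.22 on control replicates 1 to 4, so every NaPB array lay above every control array.

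In the classical pathway, the rate-limiting enzyme gene Cyp7a1 differed between diets by less than its spread. Its intensity was 0.814, 0.857, 0.737 and 0.110 on NaPB replicates 1 to 4, against 0.971, 0.355, 0.408 and 0.565 on control replicates 1 to 4. The diets overlapped, NaPB replicates 1 to 3 lay within the control range, and NaPB replicate 4 was the lowest array of all. The log2 fold change was −0.12 ± 0.63 (limma SE, 4 arrays per diet, adjusted p = 0.971), with a 95% confidence interval from −1.52 to 1.27. Without NaPB replicate 4 it was 0.59 ± 0.36 (limma adjusted p = 0.537), and without control replicate 1 it was 0.17. Without both arrays the 3 NaPB values lay above the 3 control values, at 0.88 ± 0.25 (limma adjusted p = 0.112). Its adjusted p stayed between 0.112 and 0.984 over 18 alternatives.

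Cyp8b1, which sets the share of cholic acid, had intensities of 3.42, 1.23, 3.05 and 2.41 on NaPB replicates 1 to 4, against 5.74, 3.21, 3.82 and 4.30 on control replicates 1 to 4. The only overlap was that NaPB replicate 1 exceeded control replicate 2, and the lowest array here was NaPB replicate 2. Its mean was 1.77-fold lower on NaPB, or −0.82 ± 0.36 on the log2 scale, which missed the threshold (limma adjusted p = 0.473). Leaving out NaPB replicate 4 gave −0.84, and leaving out NaPB replicate 2 gave −0.51. The ratio of Cyp7a1 to Cyp8b1, on the log2 scale and read only as a difference between diets, was 0.70 higher on NaPB (SD 1.63 on NaPB and 0.30 on control, exact permutation test, two-sided, p = 0.486). It was 1.43 higher without NaPB replicate 4. Among 3 such pairs of genes the adjusted p was 0.486. With a pseudocount of 1, which shrinks differences at low intensity, the ratios of all 3 pairs passed (exact permutation test, adjusted p = 0.0286 each). Cyp7a1 lay below 1 on every array, and with this pseudocount it differed by 0.036 and Cyp8b1 by −0.60. The ratio of these 2 genes then follows mainly Cyp8b1.

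In the acidic pathway, Cyp7b1 and Cyp27a1 were both lower in mean on NaPB, Cyp7b1 on every NaPB array. Cyp7b1, the oxysterol hydroxylase whose transcript is male-biased in mouse liver, had intensities of 6.15, 12.5, 10.6 and 2.47 on NaPB replicates 1 to 4, against 26.1, 24.5, 22.3 and 17.3 on control replicates 1 to 4. The highest NaPB array, replicate 2, lay below the lowest control array, replicate 4. The log2 SD was 1.05 over the NaPB arrays and 0.26 over the control arrays. The log2 means differed by −1.74 ± 0.46 (limma adjusted p = 0.142, 95% confidence interval −2.76 to −0.71). Without NaPB replicate 4 it was −1.26 ± 0.31, and the diets still did not overlap (limma adjusted p = 0.0948). Over 18 alternatives the adjusted p ran from 0.0556 to 0.325.

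Cyp27a1 was measured by 10 features, which gives the error among spots of one array. Its brightest feature read 2.35, 2.48, 1.90 and 1.29 on NaPB replicates 1 to 4, against 3.32, 2.04, 3.40 and 2.30 on control replicates 1 to 4. The diets overlapped, with control replicates 2 and 4 below NaPB replicates 1 and 2. On the log2 scale the difference was −0.47 ± 0.31 (limma adjusted p = 0.718), and the 10 features gave values from −0.56 to −0.23, all below 0. Leaving out NaPB replicate 4 gave −0.27 ± 0.28, and leaving out control replicate 1 as well gave −0.17. Within an array the 10 features had a median log2 SD of 0.11, whereas the mean of the features had an SD of 0.42 over the NaPB arrays and 0.40 over the control arrays. The 10 features share their RNA and array and are not replicates of a diet. The log2 ratio of Cyp7b1 to Cyp27a1 was 1.27 lower on NaPB by the difference of means, 1.78 ± 0.74 on NaPB and 3.05 ± 0.38 on control (SD, n = 4 each), and every NaPB array lay below every control array. The exact permutation test, two-sided, gave p = 0.0286, the smallest that 4 against 4 arrays allows, and an adjusted p of 0.0857 over the 3 pairs, which did not pass. Without NaPB replicate 4 the difference was −0.98.

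**Figure D2:**
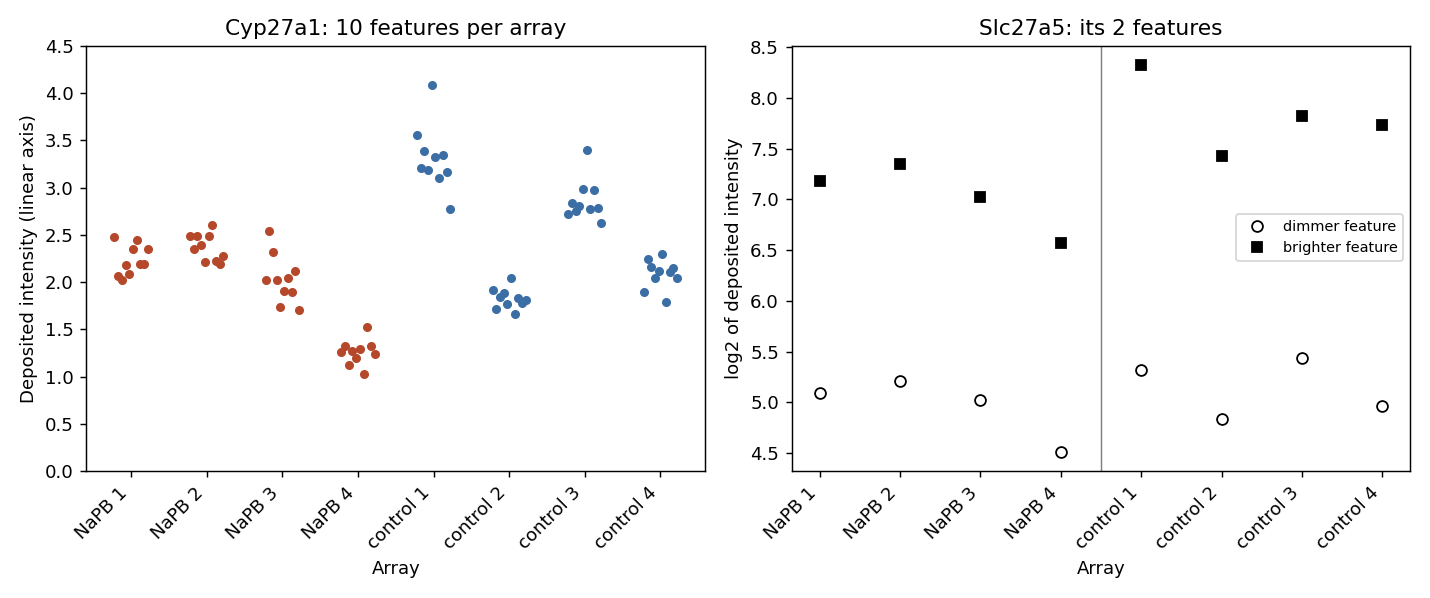
Left, deposited intensity (linear axis) of the 10 Cyp27a1 features on the 4 NaPB and 4 control arrays, where the median log2 SD within an array is 0.11 and the diets overlap. Right, log2 intensity of the 2 Slc27a5 features on the same arrays, where the brighter feature is lower on every NaPB array than on any control array and the dimmer one overlaps.

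Cyp39a1, an oxysterol hydroxylase like Cyp7b1, had a higher mean on NaPB. Its intensity was 11.2, 3.82, 7.96 and 5.68 on NaPB replicates 1 to 4, against 3.04, 4.01, 5.31 and 3.43 on control replicates 1 to 4. NaPB replicates 1, 3 and 4 lay above all control arrays, and NaPB replicate 2 lay within their range. The mean was 1.72-fold higher, at 0.78 ± 0.36 on the log2 scale, and did not pass (limma adjusted p = 0.513). Leaving out NaPB replicate 1 gave 0.53, and leaving out NaPB replicate 2 gave 1.05.

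Of the genes that modify the sterol ring after hydroxylation, Hsd3b7 had lower and Akr1d1 higher mean values on NaPB. Hsd3b7, the sterol dehydrogenase that both pathways use, had intensities of 44.8, 37.3, 45.6 and 12.6 on NaPB replicates 1 to 4, against 93.1, 49.6, 82.9 and 65.6 on control replicates 1 to 4. The diets did not overlap, though NaPB replicate 3 and control replicate 2 lay close together. Its log2 fold change was −1.18 ± 0.43, 2.26-fold lower on NaPB (limma adjusted p = 0.342). Without NaPB replicate 4, the lowest array, it was −0.74 ± 0.28 (limma adjusted p = 0.284), and quantile normalization gave −1.28 with an adjusted p of 0.0506, the lowest of 18 alternatives, which reached 0.592.

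Akr1d1, the steroid reductase that gives bile acids their bent ring system, had intensities of 1.98, 2.26, 1.50 and 0.423 on NaPB replicates 1 to 4, against 0.682, 0.861, 0.403 and 0.658 on control replicates 1 to 4. NaPB replicates 1 to 3 lay above every control array, and NaPB replicate 4 lay within the control range. With all arrays the log2 fold change was 1.05 ± 0.50, which did not pass (limma adjusted p = 0.538). Without NaPB replicate 4 it was 1.59 ± 0.31, a 3.01-fold higher mean, and passed (limma adjusted p = 0.0449), when 1.02% of all genes were called higher. Array weights and the fit without NaPB replicate 4 and control replicate 1 also called it (adjusted p = 0.049 and 0.0464). These 2 fits called 458 and 374 of all genes higher, against 81 in the unweighted fit of all arrays. Over 18 alternatives the adjusted p ran from 0.0449 to 0.813 and the value was above 0 in all 18.

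**Figure D3:**
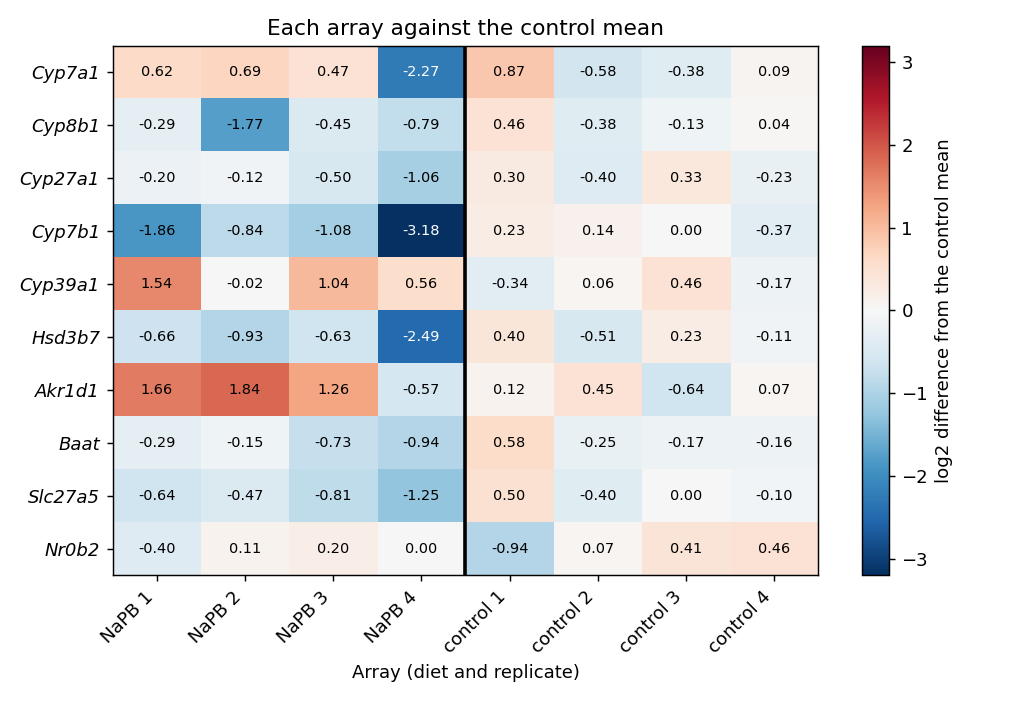
Log2 difference of each array from the control mean for the 10 genes, NaPB arrays left of the line and control arrays right. NaPB replicate 4 is at −2.27 for Cyp7a1 and −0.57 for Akr1d1, where the other NaPB arrays are above 0, and Cyp7b1, Hsd3b7 and Slc27a5 are below 0 on all 4 NaPB arrays.

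In the conjugation steps, Slc27a5 was lower on every NaPB array by one of its features, and Baat overlapped. Slc27a5, the bile acyl-CoA ligase gene, had intensities of 146, 164, 129.8 and 95.2 by its brighter feature on NaPB replicates 1 to 4, against 320.4, 173, 227 and 212 on control replicates 1 to 4. The diets did not overlap, and NaPB replicate 2 and control replicate 2 were the closest arrays. The mean difference was −0.79 ± 0.29 on the log2 scale, 1.73-fold lower on NaPB (limma adjusted p = 0.353). Without NaPB replicate 4 it was −0.64, without control replicate 1 −0.63 and without both −0.48. After quantile normalization it was −0.92 and passed (limma adjusted p = 0.0321), when 228 of all genes were called lower, against 128 before. The other 17 alternatives did not call it, with adjusted p up to 0.631.

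The dimmer Slc27a5 feature did not follow the brighter one. It read 34.0, 37.1, 32.4 and 22.8 on NaPB replicates 1 to 4, against 40.0, 28.6, 43.3 and 31.2 on control replicates 1 to 4, so the diets overlapped. Its log2 fold change was −0.18 ± 0.29 (limma adjusted p = 0.894 over all features). The log2 ratio of the brighter to the dimmer feature was 2.07 ± 0.06 on NaPB and 2.69 ± 0.26 on control (SD, n = 4 each), a difference of −0.61 with no overlap of the diets. This ratio was chosen after the values were seen; the exact permutation test, two-sided, gave p = 0.0286, the smallest that 4 against 4 arrays allows, and is given as a description. Both features carry the same RefSeq transcript in the annotation, and which parts of it they cover is not given in the sources used here.

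Baat, the gene of the amino acid transferase, had intensities of 5.09, 5.65, 3.77 and 3.25 on NaPB replicates 1 to 4, against 9.33, 5.27, 5.55 and 5.59 on control replicates 1 to 4. Control replicate 1 lay far above the other control arrays, and NaPB replicate 2 lay above the other 3 control arrays. The log2 fold change was −0.53 ± 0.30 (limma adjusted p = 0.651), and −0.34 ± 0.27 without control replicate 1. The log2 ratio of Baat to Slc27a5 was 0.27 higher on NaPB by the brighter Slc27a5 feature (exact permutation test, two-sided, p = 0.0857, adjusted p = 0.129 over the 3 pairs). By the mean of the Slc27a5 features the difference was −0.041.

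Nr0b2, the repressor SHP whose window is printed above with its TCAAGG matches, differed least in mean between the diets. Its intensity was 0.587, 0.836, 0.892 and 0.773 on NaPB replicates 1 to 4, against 0.403, 0.813, 1.03 and 1.07 on control replicates 1 to 4. The diets overlapped widely, and all 4 NaPB arrays lay within the control range. Its log2 fold change was −0.02 ± 0.35 (limma adjusted p = 0.992), with a 95% confidence interval from −0.79 to 0.75. The values are compatible with a difference of any size within that interval. Without control replicate 1, the lowest array for this gene, it was −0.34 ± 0.26.

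**Figure D4:**
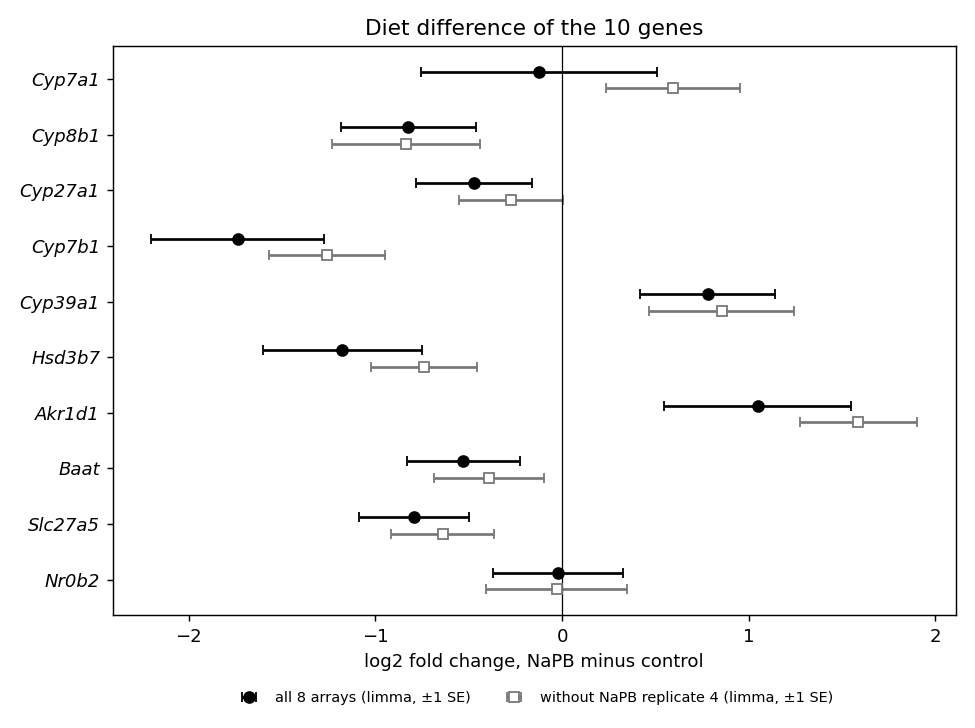
Log2 fold change (NaPB minus control) of the 10 genes with limma standard errors, for all 8 arrays and without NaPB replicate 4. Cyp7b1 has the lowest value in both fits, −1.74 and −1.26, Akr1d1 the highest, 1.05 and 1.59, and Cyp7a1 changes sign between them, −0.12 against 0.59.

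Around these 10 genes, the rest of the pathway held 1 called gene. Of 16 measured genes for other enzymes of bile acid synthesis and modification, none was called, against 1.01% of all genes. At an unadjusted p below 0.05 stood 2, against 10.1% of all genes. The median log2 fold change of the list was −0.20. The gene of this list with the smallest p was Cyp46a1, which makes the oxysterol that Cyp39a1 hydroxylates. It read 0.962, 1.10, 0.708 and 0.824 on NaPB replicates 1 to 4, against 3.205, 1.57, 2.35 and 2.33 on control replicates 1 to 4, so all NaPB arrays lay below all control arrays. Its log2 fold change was −1.37 ± 0.29 and did not pass (limma adjusted p = 0.0616), but did so after quantile normalization (0.0245), with the first-quartile filter on dim genes (0.0407), with a variance trend (0.02) and with array weights (0.0184). Those fits called 228, 137, 169 and 354 of all genes lower, against 128 in the first fit. Scp2, the sterol carrier and thiolase gene of peroxisomal side-chain shortening, differed by −0.80 ± 0.36 (limma adjusted p = 0.493).

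Of 18 measured regulators of bile acid synthesis, none was called, against 1.01% of all genes. At an unadjusted p below 0.05 stood 1, against 10.1% of all genes, and the median log2 fold change was −0.16. Ppara, the fatty acid receptor gene, had the smallest p and did not overlap, at −0.94 ± 0.30 (limma adjusted p = 0.249). Rxra, the common partner of these receptors, differed by −0.36 ± 0.25 (limma adjusted p = 0.736). Nr1h4, which encodes FXR and was named after its values were seen, differed by 0.09 ± 0.31. Among 12 measured genes of cholesterol supply and storage, none was called and none had an unadjusted p below 0.05; the smallest p were those of Npc1l1, a cholesterol uptake gene (−0.72 ± 0.33, limma adjusted p = 0.502), and Sqle, of cholesterol synthesis (0.99 ± 0.50, limma adjusted p = 0.574). Without NaPB replicate 4 and control replicate 1, Sqle passed (limma adjusted p = 0.0401), as it did with array weights (0.0435). These fits called 374 and 458 of all genes higher, against 81 in the unweighted fit of all arrays.

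Of 15 transporters of bile acids and bile lipids, 1 rose and none fell, against 0.391% and 0.617% of all genes. At an unadjusted p below 0.05 stood 6, against 10.1% of all genes. Abcc4, Slco1a4, Abcc3 and Slc10a2 were higher, and Slco1a1 and Abcb4 lower on NaPB. The median over the 15 was −0.11. All NaPB arrays lay above all control arrays for 3 of the 15, against 2.72% of all genes, and below them for 1, against 4.31%. These included Abcc3 at 1.15 ± 0.32 (limma adjusted p = 0.167) and Slco1a1 at −1.49 ± 0.46 (limma adjusted p = 0.229). The gene that rose was Abcc4, an export pump of the sinusoidal membrane, which read 1.45, 1.31, 1.02 and 0.251 on NaPB replicates 1 to 4, against 0.194, 0.140, 0.0993 and 0.115 on control replicates 1 to 4. All NaPB arrays lay above all control arrays, NaPB replicate 4 by the least. Its log2 fold change was 2.65 ± 0.52 (limma adjusted p = 0.0421). The control values were near the floor, which was 0.119, 0.0801, 0.0819 and 0.0649 on control replicates 1 to 4. Abcc4 did not pass after quantile normalization (limma adjusted p = 0.0854) or after a shift to the same median (0.0563). With a pseudocount of 1 its log2 fold change was 0.77 and did not pass (limma adjusted p = 0.164). In the fits with 1 array left out the list had 3 higher genes, Abcc2, Abcc3 and Abcc4, without NaPB replicate 4. In that fit 1.02% of all genes were called higher. The list had none without any other array. Slco1a4, an uptake transporter gene, was higher on every NaPB array at 1.30 ± 0.33 and did not pass (limma adjusted p = 0.111). It passed with a variance trend (0.0491), with array weights (0.0127) and without NaPB replicate 4 and control replicate 1 (0.0327). These fits called 95, 458 and 374 of all genes higher. Slc10a1, the main uptake carrier of conjugated bile acids, and Abcb11, the bile salt export pump, named after their values were seen, had log2 fold changes of −0.37 ± 0.31 and −0.11 ± 0.42.

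The labelled tissue was checked against marker lists. Of 5 measured hepatocyte markers (Alb, Apoa1, Ttr, Fgb and Apob) none was at the floor on any array. Their summed intensity was 1109.7 to 1359.85 on NaPB and 1273 to 2232 on control. On NaPB replicate 4 Fgb alone was 680 of the sum of 1282, while Fgb read 161 to 191 on the other NaPB arrays. No hepatocyte marker was called, against 1.01% of all genes. The NaPB arrays lay below all control arrays for Alb, at −1.24 ± 0.36 (limma adjusted p = 0.19). They did so for Apoa1 too, at 181 to 233 on NaPB and 322 to 589 on control (limma adjusted p = 0.167). These are 2 of 5 markers, against 4.31% of all genes. Apob, Ttr and Fgb overlapped between the diets, with log2 fold changes of −0.36, 0.06 and 0.07. The median over the 5 markers was −0.36. The NaPB arrays also lay below all control arrays for Cyp7b1, Hsd3b7 and Slc27a5. In bulk liver, fewer cells of a type and less RNA per cell cannot be told apart. Of 5 measured neutrophil markers 1 rose, S100a8, at 46.3, 126, 71.0 and 2.02 on NaPB replicates 1 to 4, against 0.246 to 0.464 on the control arrays (limma adjusted p = 0.0176); the list summed to 11.1 to 129.9 on NaPB and 2.98 to 4.95 on control. Of all genes 0.391% were called higher. Over the 18 alternatives S100a8 had an adjusted p from 0.000186 to 0.121. The other 4 neutrophil markers overlapped between the diets, S100a9 at 0.84 and Mpo at −0.84 on the log2 scale, and summed to 3.63 to 9.07 on NaPB and 2.57 to 4.48 on control. No marker was called among 6 cholangiocyte (summed 4.15 to 5.16 on NaPB and 4.45 to 5.44 on control), 6 Kupffer cell (12.6 to 14.1 on NaPB and 16.5 to 19.0 on control), 6 sinusoidal endothelial (117 to 194 on NaPB and 93.4 to 192 on control) or 6 stellate cell markers (18.7 to 33.1 on NaPB and 26.0 to 44.4 on control). Kdr makes up most of the endothelial sum and Dcn of the stellate one, while the median log2 fold change was −0.12 over the endothelial markers (4 of 6 below 0) and 0.25 over the stellate ones (4 of 6 above 0). It was 0.05 over the cholangiocyte and −0.47 over the Kupffer cell markers. All NaPB arrays lay below all control arrays for 3 of 6 Kupffer cell markers, Adgre1, Clec4f and Vsig4. The same held for 1 of 6 stellate cell markers, Reln, against 4.31% of all genes. It held for no cholangiocyte or endothelial marker. Of 8 pericentral hepatocyte markers 7 had a log2 fold change below 0 (median −0.63), and of 7 periportal ones 6 did (median −0.43). None was called, against 1.01% of all genes. All NaPB arrays lay below all control arrays for 2 of the 8 and 2 of the 7, against 4.31% of all genes. The reverse held for 1 of the 8, against 2.72% of all genes. The part of these marker differences in the values of the 10 genes was not tested.

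Genes whose log2 values followed 4 of the 10 most closely over the 8 arrays were found by Pearson correlation among genes brighter than the median, as a description of arrays that share their diets and scaling. For Cyp7b1 these were C9 (r = 0.99) and Ces3a (0.98), with log2 fold changes of −2.09 and −1.54. For Cyp8b1 they were Fam25c (0.96) and Ncmap (0.95), with −1.87 and −0.30. For Cyp7a1 they were Esrp2 and Memo1 (0.99 each), with −0.06 and −0.05, and for Nr0b2 Trim6 and Olfr124 (0.98 each), with −0.0037 and −0.0017. None of these 8 genes was called.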

How the data were processed

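Liver RNA was measured on one-colour (Cy3) Agilent arrays, 4 per diet, and the scans were quantified with Agilent Feature Extraction 10.7, per the submitters' processing notes. The deposited values are spot intensity values on a linear scale with a 75th percentile between 0.952 and 0.974 on every array. NaPB replicate 2 holds 3443 distinct values and the other arrays 62756 to 62839, as coarser rounding gives. No source used here states the scaling rule, the background correction or the flags. Features were named through the platform annotation, with symbols updated through RefSeq tables of GRCm38.p6 (31465 features with 1 symbol, 31511 with none).

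Values were taken as log2 of the intensity with no pseudocount, and each gene by the feature with the highest mean. limma 3.58.1 in R 4.3.3 (lmFit and eBayes, two-sided, Benjamini-Hochberg adjustment) gave the tests and was tested on simulated data; ratios of paired genes (Cyp7a1 over Cyp8b1, Cyp7b1 over Cyp27a1, Baat over Slc27a5) used exact permutation of arrays. Outside the 10 genes, called genes of each list were named, up to 4, or else its 2 with the smallest p. Some other transporter and marker genes were named after their values were seen. The 10 genes, the lists and the tests were chosen with earlier results of these data known. Figures were drawn with Python 3.11.15 and matplotlib 3.10.9.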

Additional observations from a re-analysis of the deposited data

Results flagged for a closer look

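Among the 20 features of the 10 genes, 4 of the 40 groups of 4 arrays held a value far from the rest, by a gap to the nearest array that exceeded Dixon's critical share of the group's range. Chance flags about 1 in 20 groups, and the 10 Cyp27a1 features are not independent. NaPB replicate 4 was far below the other NaPB arrays for Cyp7a1 (intensity 0.110), for 1 feature of Cyp27a1 (1.32) and for Hsd3b7 (12.6). Control replicate 1 was far above the other control arrays for Baat (9.33). The results with and without these arrays stand beside each gene.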

How the results depend on the processing

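Called genes were 0 of 10 with all arrays under 8 of the 10 alternatives that kept them; quantile normalization called 1 lower (Slc27a5, also as 1 feature) and array weights 1 higher (Akr1d1, 1.48), and leaving out arrays gave 0 to 1 higher. Leaving out NaPB replicate 4 and control replicate 1 together called 1 higher (Akr1d1, 1.63). Cyp7a1 reversed to 0.036 with a pseudocount of 1, 0.56 with array weights, 0.59 without NaPB replicate 4, 0.17 without control replicate 1 and 0.88 without both; with 1 array left out its lowest value was −0.39. Nr0b2 reversed to 0.10, 0.11 and 0.13 without NaPB replicate 1 and control replicates 3 and 4, and its lowest value was −0.34. The other 8 genes kept their sign under all 18 alternatives. The log2 ratio of Baat to Slc27a5 reversed to −0.041 with the mean of features. Cyp7a1 lay below 1 on every array, so a pseudocount of 1 shrinks its differences most. With a pseudocount of 1 the 3 ratios were 0.64 (Cyp7a1 to Cyp8b1), −1.24 (Cyp7b1 to Cyp27a1) and 0.35 (Baat to Slc27a5). Each passed (exact permutation, adjusted p = 0.0286). With 1 array left out these ratios ran from 0.12 to 1.43, −1.50 to −0.98 and 0.21 to 0.33, with none passing; the two-sided exact test cannot pass with 7 arrays, so this says nothing about stability. Over all genes, 81 higher and 128 lower became 100 and 228 with quantile normalization, 46 and 65 with a shift to the same median, 458 and 354 with array weights, 130 and 234 at a threshold of 0.1, and 374 and 196 without both arrays; they were 36 to 211 and 48 to 154 with 1 array left out. Among other enzymes, Cyp46a1 was called lower with quantile normalization, the first-quartile filter, a variance trend and array weights, and at a threshold of 0.1. Transporters called higher numbered 0 to 3 with 1 array left out and 4 without both arrays (Abcc2, Abcc3, Abcc4 and Slco1a4), when 1 gene of cholesterol supply (Sqle) was also called. With array weights Abcc2, Abcc3, Abcc4, Slc10a2 and Slco1a4 were called higher. Quantile normalization called 1 transporter higher, Abcc3 (limma adjusted p = 0.0457). Causes of these shifts were not tested. With the replicate number as a block, 58 genes were called higher and 77 lower and 0 of the 10; same-numbered arrays correlated at 0.23, −0.29, 0.04 and 0.23 in their deviations, so the numbers were not taken to pair the samples.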
